A study of Mus musculus with 114 samples.

Results

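The 8 genes examined here encode components, receptors and regulators of the complement system, and were chosen by symbol from the 29132 genes measured: C2, C4b, C3 and Cfb, the receptors C3ar1 and C5ar1, and the regulators Serping1 and Cd55. Their mRNA was measured by RNA-seq in adipocytes, the fraction that floats after collagenase digestion, from the perigonadal fat of 38 male C57BL/6J mice. Mice were fed control chow (CD) or, in its place, a high fat diet (HFD) from 6 weeks of age and were killed after 8, 20 or 34 weeks, at 14, 26 and 40 weeks of age, with 6 mice in each group except 8 in the 34 week CD group. Each mouse gave 1 value per gene, in which 3 technical replicates had been merged. The methods name a pair of control diet formulations without saying which mice had which, and all mice were fasted for 6 h, so the groups differ in diet and time on diet and share strain, sex and depot.

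Complement is a cascade of plasma and cell-surface proteins that marks particles for uptake and sends inflammatory signals. In the classical and lectin pathways C4 and C2 are cleaved to form a convertase, in the alternative pathway factor B (Cfb) and factor D (Cfd, adipsin) form another, and both cleave C3, the protein on which the pathways converge. The small fragments C3a and C5a signal through the receptors C3ar1 and C5ar1, which are best known on myeloid cells, while C1 inhibitor (Serping1) restrains the first proteases and decay-accelerating factor (Cd55) breaks up convertases on cell surfaces. Fat is known as a source of several of these proteins, adipsin above all.

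Values are reads of a gene per 1000000 reads on all genes (CPM). Each mouse had between 9275711 and 15480388 reads on genes, so that 1 read was worth 0.0646 to 0.108 CPM, and at 8 weeks every HFD mouse was read more deeply than every CD mouse. All 8 genes had reads in every mouse and passed the filter on low values, a mean log2(CPM + 1) above 2, that left 10343 genes to be tested. Of 9 adipocyte markers, including Adipoq and Plin1, none was at 0 in any mouse, with summed levels of 15939 to 46159.5 CPM. Of 8 endothelial markers 8, 6 and 8 were higher in HFD mice at 8, 20 and 34 weeks, with sums of 26.2 to 421 CPM. Mesothelial markers summed to at most 91.2 CPM and hepatocyte markers to at most 37.8. Markers of B and T cells summed to at most 8.56 CPM and those of the epididymis to at most 6.92 CPM. In bulk RNA, fewer cells of a type and less RNA per cell cannot be told apart.

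Divided by the exon length of each gene, C4b was the most abundant of the 8, at a mean of 447 CPM per kilobase of exon over all mice, followed by C3 at 292 and Serping1 at 122. The receptors C5ar1 and C3ar1 stood at 47.4 and 39.4 on the same scale, C2 at 21.8, Cfb at 13.4 and Cd55 at 9.24. The spread over mice was of another order: C5ar1 varied 56.0-fold between its lowest and its highest mouse, C3ar1 39.0-fold and C2 23.4-fold, whereas C4b varied 4.19-fold and Cd55 3.77-fold. The most abundant component was thus among the least variable, as the plot of all values by mouse shows.

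**Figure D1:**
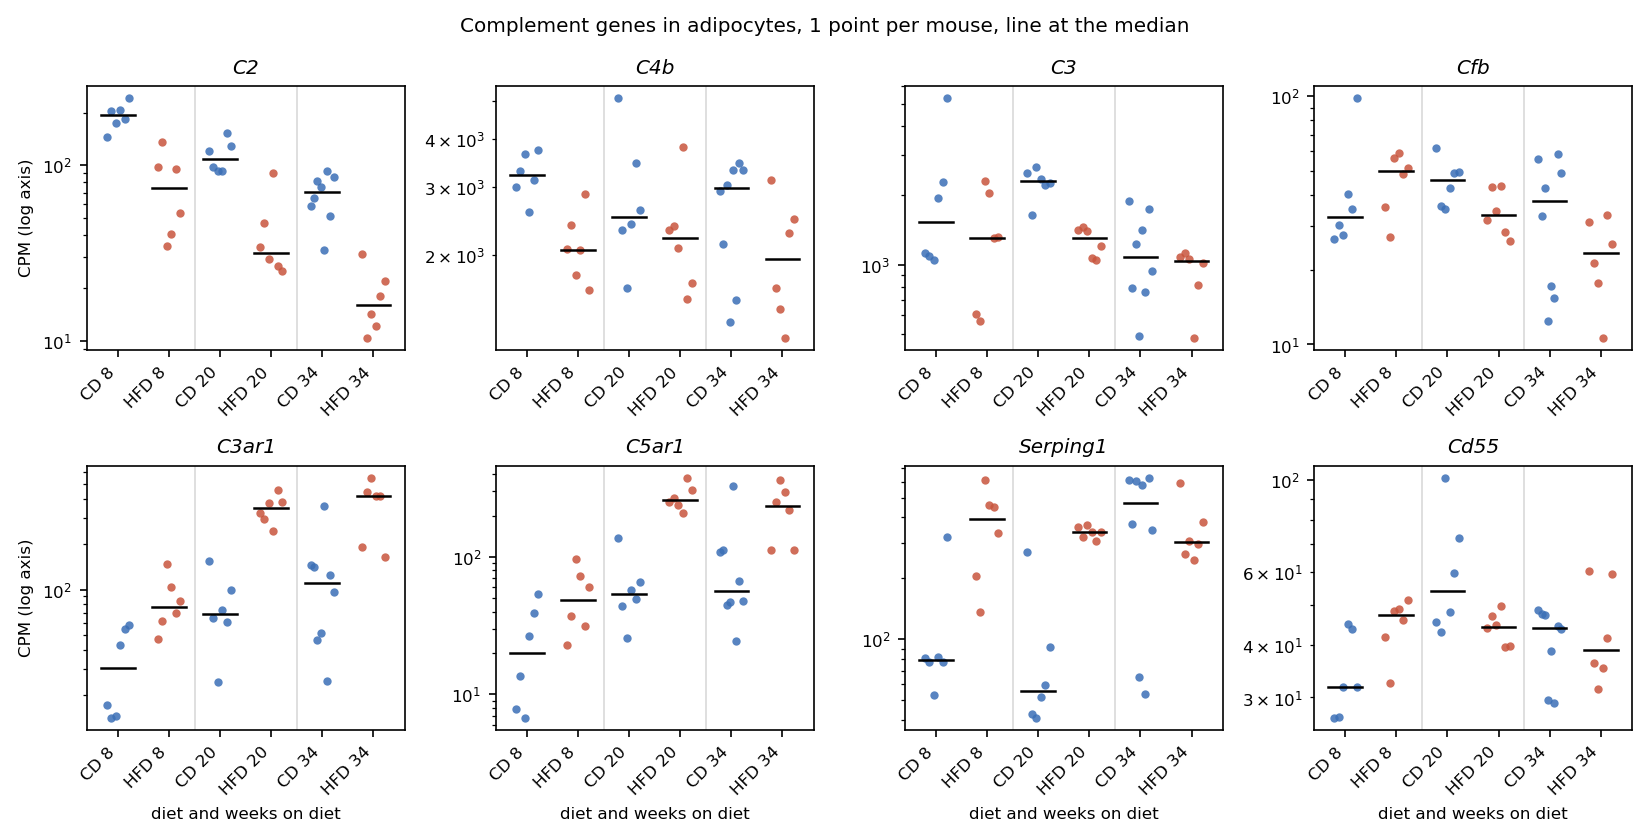
CPM of the 8 complement genes on log axes, 1 point per mouse, CD in blue and HFD in red, with a line at the median of each group of 6 to 8 mice. C2 lies lower in every HFD mouse than in any CD mouse at each time, C3ar1 and C5ar1 lie higher in all 6 HFD mice at 20 weeks, and Serping1 in CD mice is low at 8 and 20 weeks and mostly high at 34 weeks.

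HFD and CD mice were compared at each time with limma on log2(CPM + 1), and a gene is called where the p-value adjusted over the 10343 genes is under 0.05. At 8 weeks C3ar1, C5ar1 and Serping1 were higher and C2 and C4b lower in HFD mice, so that 3 of 8 rose and 2 fell, beside 29.8% and 15.1% of all genes. At 20 weeks C3ar1, C5ar1 and Serping1 were again higher and C2 and C3 lower, 3 and 2 of 8, beside 38.3% and 18.7%. At 34 weeks C3ar1 and C5ar1 were higher and C2 lower, 2 and 1 of 8, beside 27.5% and 15.7%. These shares lie near those of all genes. The median log2 fold change of the 8 was 0.31, -0.36 and -0.08 at 8, 20 and 34 weeks, against 0.11, 0.14 and 0.07 over all genes tested. With TMM factors, which correct for the composition of the library, the median over all genes moved to 0.00 at 8 weeks and -0.05 at 20 weeks, so changes are read against these shifts.

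**Figure D2:**
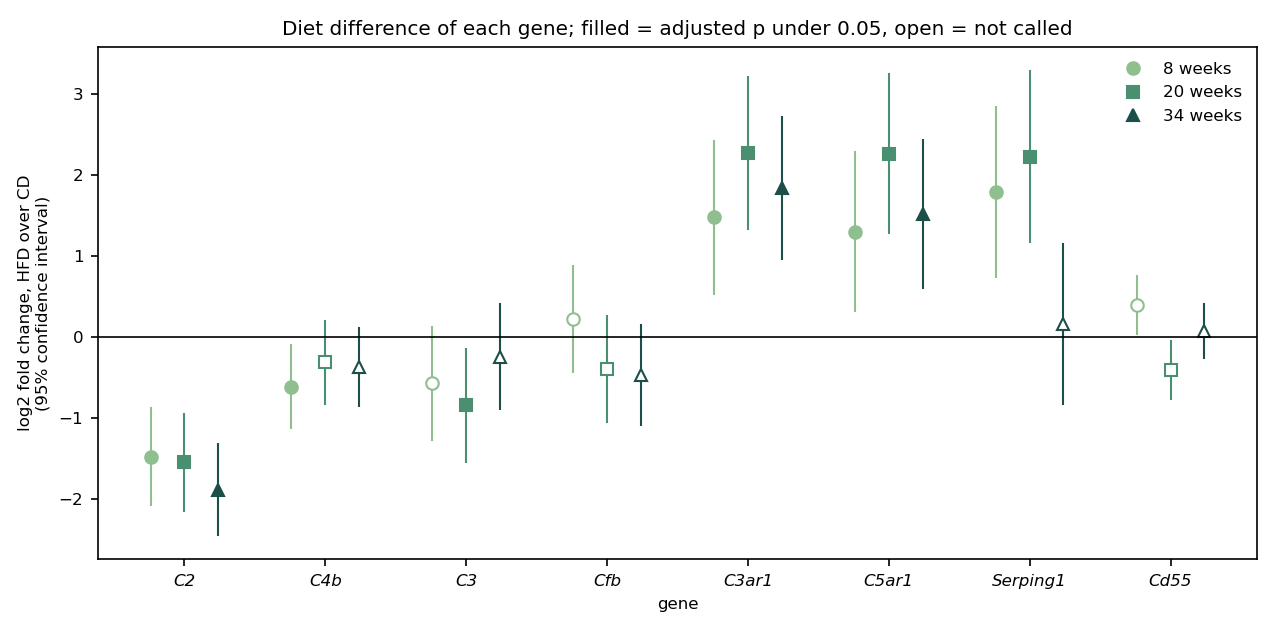
Log2 fold change of HFD over CD for each gene at 8, 20 and 34 weeks, with 95% confidence intervals from limma's standard errors. Filled symbols are called at an adjusted p under 0.05. C2 lies below 0 and C3ar1 and C5ar1 above 0 at all times, while Serping1 goes from 2.22 at 20 weeks to 0.16 at 34 weeks.

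C2 (Entrez 12263, minus strand of chromosome 17, 34862602 to 34882100 on GRCm38), the protease subunit of the classical convertase, was the gene with the most regular diet difference. At 8 weeks it ranged from 34.6 to 136 CPM with a median of 74.4 in HFD mice and from 146 to 242 with a median of 194 in CD mice. At 20 weeks the HFD range was 24.9 to 90.7 CPM (median 31.9) and the CD range 93.2 to 153 (median 109). At 34 weeks the HFD range was 10.4 to 31.1 CPM (median 16.1) and the CD range 32.8 to 93.3 (median 70.2). At none of these times did the diets overlap, every HFD mouse lying lower. C2 was the only one of the 8 without overlap at 8 weeks, where 7.14% of all genes lay lower and 15.7% higher in HFD mice without overlap, and again at 34 weeks, where the shares were 0.986% and 1.47%. The log2 fold changes were -1.48 (standard error, SE, 0.299, adjusted p = 0.000239), -1.55 (0.299, adjusted p = 5.18e-05) and -1.89 (0.280, adjusted p = 1.36e-05).

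Levels of C2 followed both diet and time. The group means ran from 193 ± 32.7 CPM (SD, n = 6) in 8 week CD mice through 114 ± 23.9 at 20 weeks on CD, 76.3 ± 39.7 at 8 weeks on HFD, 67.9 ± 19.9 (n = 8) at 34 weeks on CD and 42.2 ± 25.1 at 20 weeks on HFD to 18.0 ± 7.68 at 34 weeks on HFD. The mean ± SD ranges of the 8 week and the 20 week CD mice did not overlap, and those of every later pair of neighbours in this order did. Such ranges are a description and not a test. By limma the difference of C2 between 20 and 8 weeks in CD mice, -0.76, was not called (adjusted p = 0.165). At 20 weeks HFD mouse 4, at 90.7 CPM, stood apart from the other 5, which reached 47.2. Other cell type markers also moved with diet: of 9 adipocyte markers 1, 6 and 8 were lower and 1, 1 and 0 higher in HFD mice at 8, 20 and 34 weeks, and of 12 fibroblast and progenitor markers, 11 of which were tested, 7, 10 and 5 were higher and none lower. The summed fibroblast and progenitor level, most of it Gsn, ranged from 8193 to 17399 CPM over all mice, and none of the 12 was at 0 throughout. With the mean level of these 12 as a covariate the diet difference of C2 was -0.66 (adjusted p = 0.0993), -0.18 (adjusted p = 0.847) and -1.33 (adjusted p = 0.000912) at the 3 times, and with 14 macrophage markers -1.04, -0.85 and -1.45, with an adjusted p of 0.00887, 0.0801 and 0.00146. The study reports higher matrix genes, among them Col1a1 of the fibroblast and progenitor list, in adipocytes on HFD. That report rests on the same floating fraction, whose bulk RNA does not tell adipocytes from carried-over cells. Which cells the RNA of that list came from, and their part in the difference of C2, was not tested.

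C4b (Entrez 12268, chromosome 17, 34728139 to 34743902, minus strand), the mouse C4 that is cleaved together with C2, was lower in HFD mice at 8 weeks. It ranged from 1617 to 2880.5 CPM (median 2063) in HFD and from 2574.5 to 3735 (median 3217) in CD mice, which is -0.62 on the log2 scale (SE 0.258, adjusted p = 0.0498). Of 6 HFD mice 5 lay under all CD mice. At 20 weeks HFD mice ranged from 1533 to 3796 CPM and CD mice from 1642 to 5097, with a log2 difference of -0.32 and a 95% interval from -0.84 to 0.21 (adjusted p = 0.300). At 34 weeks the ranges were 1215 to 3129 and 1336 to 3468 CPM, and the log2 fold change was -0.37 with an interval from -0.86 to 0.12 (adjusted p = 0.212). The diets overlapped widely at both later times. The call at 8 weeks was lost without a filter on low values (adjusted p = 0.1001), with a stricter filter (adjusted p = 0.0503), with the fibroblast and progenitor covariate (adjusted p = 0.148) and on leaving out any of 23 of the 38 mice, among them 8 week CD mice 1, 2, 3, 5 and 6 and 8 week HFD mice 1, 3, 4 and 6, where the adjusted p was 0.0502 to 0.112. Of the windows of 50 bases in the C4b transcript, 35.2% also occur in its near copy C4a, and 16.5% of those of 100 bases. A read within such a window cannot by itself be given to 1 of the 2 genes. Whether such reads were dropped, which would lower C4b, or counted was not tested. C4a itself averaged 3.48 CPM.

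C3 (Entrez 12266, chromosome 17, 57203967 to 57228136, minus strand), the convergence point of the cascade, was lower in HFD mice at 20 weeks, from 1047 to 1461 CPM (median 1304) against 1641 to 2671 (median 2316) in CD mice. The diets did not overlap. The log2 fold change was -0.85 (SE 0.348, adjusted p = 0.0375), and the call was lost without a filter on low values (adjusted p = 0.0609) and on leaving out any of 8 mice (20 week CD mice 1, 3, 4, 5 and 6 and HFD mice 4, 5 and 6, adjusted p = 0.0522 to 0.0691). At 8 weeks the ranges were 567 to 2303 CPM in HFD and 1049 to 5322 in CD mice. At 34 weeks they were 478 to 1124 and 489 to 1883 CPM, and the log2 fold changes at these times were -0.58 (interval -1.29 to 0.13, adjusted p = 0.176) and -0.25 (interval -0.91 to 0.42, adjusted p = 0.555). The 8 week CD group held 1 mouse far above the rest, mouse 6 at 5322 CPM, where the other 5 reached 2285, and without it the 8 week difference was -0.26 (adjusted p = 0.537). Without 34 week HFD mouse 4 the 34 week difference was -0.066 (adjusted p = 0.892). With the macrophage covariate the C3 differences were -1.13 (adjusted p = 0.0125) at 8 weeks and -1.72 (adjusted p = 0.00293) at 20 weeks.

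The 250 bases upstream of the annotated C3 start (RefSeq, GRCm38.p6, chr17:57228137-57228386, printed 5′ to 3′ along the minus strand) hold the letters TTNNGNAA, a CCAAT/enhancer-binding protein site searched on both strands, in 3 places within 70 bases of the start, and 36.8% of 32851 promoters of that length hold these letters at least in 1 place. They are shown in capitals because these factors are known for their part in fat cell differentiation and in acute phase genes such as C3. A match of letters is a description, not a binding site.
C3: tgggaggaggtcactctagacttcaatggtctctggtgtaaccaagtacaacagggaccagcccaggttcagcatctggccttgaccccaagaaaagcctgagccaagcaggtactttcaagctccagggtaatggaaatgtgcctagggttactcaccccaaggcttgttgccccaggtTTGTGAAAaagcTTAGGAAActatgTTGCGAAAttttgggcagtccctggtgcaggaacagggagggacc

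Cfb (Entrez 14962, chromosome 17, 34856374 to 34862514, minus strand, directly beside C2), the protease of the alternative convertase, did not pass the test between diets at any time. It ranged from 27.1 to 58.9 CPM (median 49.8) in HFD and 26.5 to 98.6 (median 32.8) in CD mice at 8 weeks. At 20 weeks the ranges were 26.2 to 43.5 (median 33.1) and 35.2 to 62.0 (median 46.1), and at 34 weeks 10.6 to 33.4 (median 23.3) and 12.4 to 58.8 (median 37.8). The log2 fold changes were 0.22, -0.40 and -0.47, with intervals of -0.45 to 0.89, -1.06 to 0.27 and -1.10 to 0.15 and adjusted p = 0.602, 0.307 and 0.210. Unlike that of C2, its HFD range overlapped the CD range at each time, although both genes lie side by side on the same strand. In the GENCODE vM21 annotation 79.5% of the exon bases of Cfb and 42.8% of those of C2 are shared with the predicted gene Gm20547 on the same strand. Reads were counted only where they fell on 1 gene, so the level of both would be too low if the vM2 annotation used for counting held the same model, and whether it did was not tested.

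The receptors moved together. C3ar1 (Entrez 12267, chromosome 6, 122847140 to 122856157, minus strand), the C3a receptor, ranged at 8 weeks from 46.8 to 147 CPM (median 77.2) in HFD and from 14.1 to 57.9 (median 30.2) in CD mice. At 20 weeks the HFD range was 243 to 459 CPM (median 347) and the CD range 24.4 to 156 (median 69.3). At 34 weeks it was 165 to 549.5 (median 417) in HFD and 24.6 to 358 (median 111) in CD mice. HFD mice lay above all CD mice in 5 of 6 at 8 weeks, 6 of 6 at 20 weeks and 4 of 6 at 34 weeks. The log2 fold changes were 1.47 (SE 0.468, adjusted p = 0.0112), 2.27 (0.468, adjusted p = 0.000119) and 1.83 (0.438, adjusted p = 0.00138).

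C5ar1 (Entrez 12273, chromosome 7, 16246743 to 16259540, minus strand), the C5a receptor, ranged from 22.8 to 96.0 CPM (median 48.8) in HFD and 6.72 to 53.7 (median 20.1) in CD mice at 8 weeks. At 20 weeks the ranges were 209.7 to 376 (median 258) and 25.8 to 138 (median 53.4), and at 34 weeks 113 to 364 (median 235) and 24.3 to 329.7 (median 56.9). Here 3, 6 and 1 of 6 HFD mice lay above all CD mice. The log2 fold changes were 1.29 (SE 0.487, adjusted p = 0.0301), 2.26 (0.487, adjusted p = 0.000203) and 1.52 (0.456, adjusted p = 0.00791). The call at 8 weeks was lost without a filter (adjusted p = 0.0511), with edgeR on the recovered reads (adjusted p = 0.104) and on leaving out 8 week CD mouse 1, 2 or 3 or HFD mouse 3, 4 or 6 (adjusted p = 0.0591 to 0.0973). For each receptor the means of the HFD groups at 20 and 34 weeks were the highest and that of the 8 week CD group the lowest. For C3ar1 the mean ± SD ranges of the 20 week HFD mice (345 ± 75.6 CPM) and the 34 week CD mice (124 ± 105), neighbours in this order, did not overlap, while those of all neighbouring C5ar1 groups did.

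At 20 weeks the receptors and Serping1 were higher in HFD mice without overlap and C2 and C3 lower, 3 and 2 of 8, beside 26.1% and 11.1% of all genes. Most macrophage markers were higher in the same samples: of 14, 13 passed the filter, and 9, 10 and 12 were higher and 0, 1 and 0 lower in HFD mice at 8, 20 and 34 weeks. Their summed level was 383 to 1774 CPM in 8 week CD, 1126 to 3869 in 8 week HFD, 969 to 3649 in 20 week CD, 5175 to 10971.5 in 20 week HFD, 1122 to 13010.2 in 34 week CD and 5982 to 17439.8 in 34 week HFD mice. None of the 14 was at 0 in any mouse. In every group except the 34 week HFD mice, the mouse with the highest receptor levels also had the highest marker sum of its group. Among these, 34 week CD mouse 5 had 358 CPM of C3ar1, 329.7 of C5ar1 and a marker sum of 13010.2, and 20 week CD mouse 1 had 156, 138 and 3649. At 34 weeks on HFD mouse 3 had the highest receptor levels, with a sum of 16343, and mouse 4 the highest sum, 17439.8. The order did not hold across groups. The 34 week CD mice 2 and 1, with marker sums of 9692 and 6958, had 141 and 145 CPM of C3ar1 and 112 and 109 of C5ar1. The 20 week HFD mice, with sums of 5175 to 10971.5, had 243 to 459 CPM of C3ar1 and 209.7 to 376 of C5ar1. With the mean macrophage marker level as a covariate the diet difference of C3ar1 was 0.01, -0.05 and 0.39 at 8, 20 and 34 weeks (adjusted p = 0.977, 0.887 and 0.0784) and that of C5ar1 -0.21, -0.11 and 0.03 (adjusted p = 0.382, 0.743 and 0.928), so no call remained. This was not particular to macrophage markers. With the fibroblast and progenitor covariate C3ar1 was at -0.085 and -0.33 and C5ar1 at -0.33 and -0.45 at 8 and 20 weeks. At 34 weeks neither receptor was called with it. Markers of neutrophils, which also carry C5ar1, summed to between 4.26 and 47.1 CPM over all mice, with Ly6g at 0 in every mouse. What part carried-over macrophages had in the receptor levels was not tested beyond these values.

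**Figure D3:**
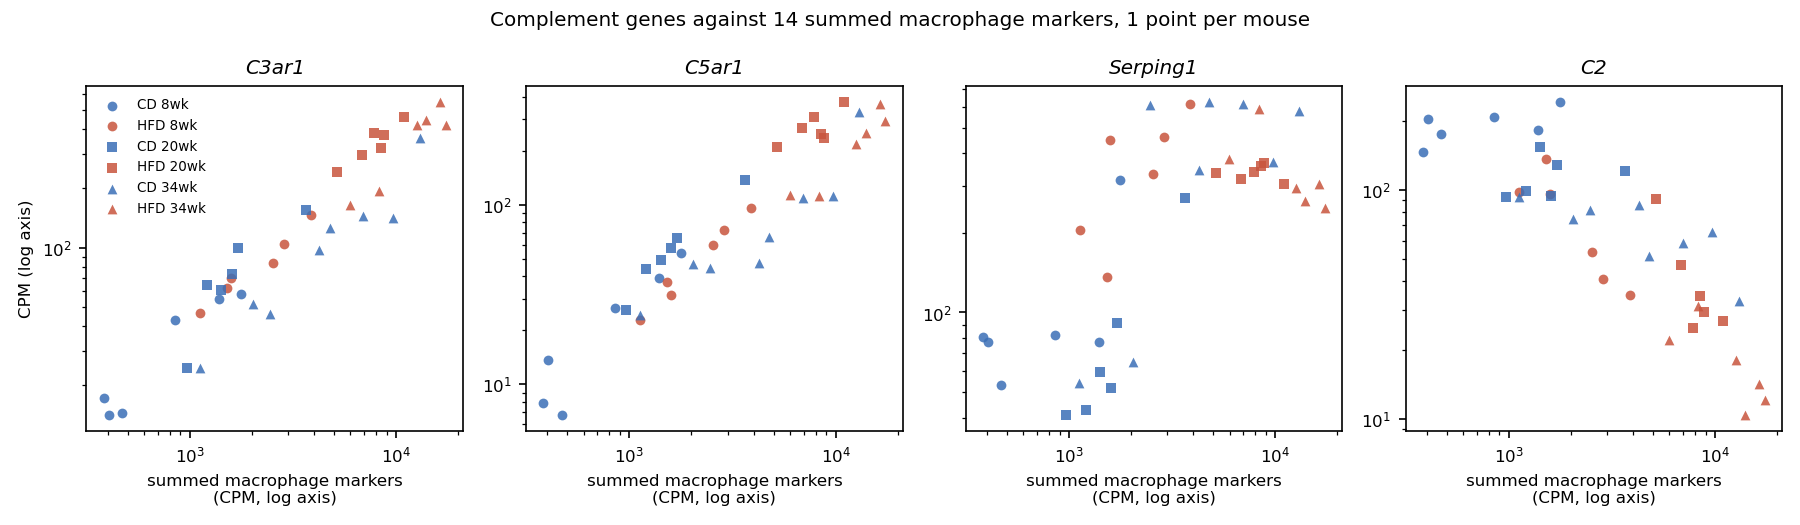
CPM of C3ar1, C5ar1, Serping1 and C2 (log axes) against the summed CPM of 14 macrophage markers in each of 38 mice, CD in blue and HFD in red, with circles, squares and triangles for 8, 20 and 34 weeks. The receptors climb with the markers in both diets, C2 descends, and the mice with the lowest Serping1 are among those with little macrophage RNA.

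Upstream sequence was at hand for 4 of the 8 genes, and the 250 bases before the starts of the receptors are printed because these genes moved together (RefSeq, GRCm38.p6, minus strand, 5′ to 3′: C3ar1 chr6:122856158-122856407, C5ar1 chr7:16259339-16259588, before a start that lies inside the outermost end of the gene). Capitals mark a search pattern for an NF-kB site in C3ar1, and AGGAAG, the core bound by ETS factors such as PU.1, in C5ar1. The NF-kB pattern is not the consensus, as it accepts any base at a position where the consensus needs A or G. The C3ar1 match, read on the strand opposite to the gene, has C there, so it is not a match to the consensus. Both patterns were searched on both strands, and 1.41% and 29.5% of 32851 promoters hold them. C3ar1 has 1 match to the first, 14 to 5 bases before its start, and C5ar1 has 3 to the second, of which the pair nearest the start overlap each other. Other motifs were searched in each window. TTNNGNAA, held by 36.8% of promoters, has 1 match in C5ar1, and the TATA box TATAAA, held by 12.4%, has 1 in C3ar1. The gamma-activated site and the interferon-stimulated response element core have no match in either. Neither window shares its capitalised letters with the other, and the PU.1 core GAGGAA, held by 23.3% of promoters, has no match in either.
C3ar1: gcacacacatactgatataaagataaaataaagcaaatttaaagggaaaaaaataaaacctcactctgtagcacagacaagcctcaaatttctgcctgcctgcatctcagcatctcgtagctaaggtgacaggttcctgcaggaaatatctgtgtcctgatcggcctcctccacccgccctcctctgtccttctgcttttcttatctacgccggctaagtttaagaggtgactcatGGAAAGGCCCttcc
C5ar1: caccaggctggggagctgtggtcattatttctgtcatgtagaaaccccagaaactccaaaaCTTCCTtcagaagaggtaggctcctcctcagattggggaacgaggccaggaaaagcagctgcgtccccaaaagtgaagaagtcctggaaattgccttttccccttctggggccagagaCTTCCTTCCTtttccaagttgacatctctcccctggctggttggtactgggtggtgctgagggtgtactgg

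Serping1 (Entrez 12258, chromosome 2, 84765360 to 84775444, minus strand), the C1 inhibitor, was higher in HFD mice at 8 and 20 weeks and did not pass the test at 34 weeks. At 8 weeks it ranged from 137 to 614 CPM (median 391) in HFD and from 53.1 to 318 (median 78.9) in CD mice. At 20 weeks the HFD range was 306.5 to 369 (median 338) and the CD range 40.8 to 270.0 (median 55.5), without overlap. At 34 weeks the HFD range was 248 to 588 (median 301) and the CD range 53.9 to 627 (median 473), so that the CD median was now the higher one. The log2 fold changes were 1.79 (SE 0.524, adjusted p = 0.00643), 2.22 (0.524, adjusted p = 0.000545) and 0.16 (0.490, interval -0.84 to 1.16, adjusted p = 0.810). The value at 34 weeks turned negative under several settings, among them edgeR (-0.29) and array weights (-0.40).

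The HFD means of Serping1 stayed close together, at 366 ± 177, 338 ± 23.1 and 347 ± 127 CPM at 8, 20 and 34 weeks (SD, n = 6 each). The CD means were 115 ± 100.3 and 92.7 ± 88.8 at 8 and 20 weeks and 407 ± 241 (n = 8) at 34 weeks. In the order of the 6 means, the 20 week HFD and the 8 week CD mice were the only neighbours whose mean ± SD ranges did not overlap. Single mice stood out among the low CD groups, with 318 CPM in 8 week CD mouse 6 against 53.1 to 81.9 in the other 5, and 270.0 in 20 week CD mouse 1 against 40.8 to 91.6. These 2 mice also had the highest summed macrophage markers of their groups, 1774 and 3649 CPM. At 34 weeks CD mice 4 and 6, at 64.8 and 53.9 CPM, were as low as the younger CD mice, with marker sums of 2037 and 1122, whereas CD mouse 3, with a marker sum of 2465, had 607 CPM. With the macrophage covariate the diet differences were 0.71, 0.52 and -0.91 (adjusted p = 0.239, 0.527 and 0.189), and with the fibroblast and progenitor covariate 0.57, 0.18 and -0.66 (adjusted p = 0.485, 0.919 and 0.382).

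Cd55 (Entrez 13136, chromosome 1, 130429798 to 130465009, minus strand), which protects cells against complement on their surface, did not pass the test between diets at any time. It ranged from 32.4 to 51.4 CPM (median 47.2) in HFD and 26.8 to 45.1 (median 31.8) in CD mice at 8 weeks, a log2 difference of 0.39 (interval 0.02 to 0.76, adjusted p = 0.0776). At 20 weeks it ranged from 39.7 to 49.7 (median 44.4) in HFD and 43.2 to 100.9 (median 53.9) in CD mice, a log2 difference of -0.41 (interval -0.78 to -0.04, adjusted p = 0.0525). At 34 weeks the ranges were 31.5 to 60.2 and 29.1 to 48.7 CPM, with 0.08 (interval -0.27 to 0.42, adjusted p = 0.732). All 6 HFD mice lay above the CD median at 8 weeks and all 6 below it at 20 weeks. The difference at 20 weeks passed the threshold with TMM factors (-0.60, adjusted p = 0.00595), median-of-ratios size factors (-0.57, adjusted p = 0.00854), array weights (-0.42, adjusted p = 0.00234) and edgeR (-0.70, adjusted p = 0.00245), and on leaving out any of 11 mice, among them 20 week CD mice 1, 2 and 4 (adjusted p = 0.0238 to 0.0494 over the 11). Without 20 week CD mouse 3, the highest of its group, it was -0.26 (adjusted p = 0.213). The 6 group means ran from 34.4 ± 8.13 CPM in 8 week CD to 61.7 ± 22.1 in 20 week CD mice, and the mean ± SD ranges of all neighbours in the order overlapped.

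Times were compared within each diet, between different mice. Age, weeks on diet and any difference in harvest or sequencing between the times cannot be told apart, and rose and fell refer to group levels. In either diet every 20 week mouse was read more deeply than every 34 week mouse. In CD mice every 20 week mouse was also read more deeply than every 8 week mouse. In CD mice 1 of 8 rose and none fell from 8 to 20 weeks, beside 1.7% and 1.88% of all genes. That gene was Cd55, at 0.79 on the log2 scale (SE 0.181, adjusted p = 0.00858). From 20 to 34 weeks in CD mice Serping1 rose by 2.04 (SE 0.490, adjusted p = 0.000586), while C2 (-0.78, adjusted p = 0.0154), C3 (-1.09, adjusted p = 0.00437) and Cd55 (-0.53, adjusted p = 0.00726) fell, 1 and 3 of 8 beside 41.1% and 21.4%. From 8 to 34 weeks in CD mice C3ar1 (1.68, adjusted p = 0.00125), C5ar1 (1.87, adjusted p = 0.000649) and Serping1 (1.66, adjusted p = 0.00377) rose, and C2 (-1.54, adjusted p = 1.96e-05) and C3 (-0.74, adjusted p = 0.0457) fell, 3 and 2 of 8 beside 40.1% and 24.6%. The fall of C3 from 8 to 34 weeks was lost on leaving out any of 7 mice (8 week CD mice 4, 5 and 6 and 34 week CD mice 2, 4, 6 and 8, adjusted p = 0.0643 to 0.227), and was -0.42 without 8 week CD mouse 6. Macrophage markers moved over the same step, with 11 of 13 higher and none lower, and with their level as a covariate C3ar1 was at -0.51 (adjusted p = 0.0103), C5ar1 at -0.38 (adjusted p = 0.104) and Serping1 at 0.04 (adjusted p = 0.949). From 20 to 34 weeks 8 of 13 markers were higher and 2 lower, and C2 was at -0.38 (adjusted p = 0.245) with the macrophage and -0.40 (adjusted p = 0.138) with the fibroblast and progenitor covariate. The part of these cells was not tested. Comparisons that share a group of mice are not independent of each other.

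In HFD mice C3ar1 (2.07, adjusted p = 0.00117) and C5ar1 (2.48, adjusted p = 0.000348) rose from 8 to 20 weeks and C2 fell (-0.82, adjusted p = 0.0305), 2 and 1 of 8 beside 21.2% and 15.3% of all genes. The fall of C2 was lost on leaving out HFD mice 1, 2 or 5 of 8 weeks or 1, 3, 5 or 6 of 20 weeks (adjusted p = 0.0533 to 0.103). From 20 to 34 weeks in HFD mice only C2 passed the test, falling (-1.12, adjusted p = 0.00567), 0 and 1 of 8 beside 17.8% and 12.5%. From 8 to 34 weeks in HFD mice C3ar1 (2.04, adjusted p = 0.000520) and C5ar1 (2.09, adjusted p = 0.000610) rose and C2 (-1.95, adjusted p = 5.58e-06) and Cfb (-1.01, adjusted p = 0.0104) fell, 2 and 2 of 8 beside 31.7% and 20.8%. Of the 13 macrophage markers 11 were higher and none lower from 8 to 20 weeks, and 12 were higher and 1 lower from 8 to 34 weeks. With their level as a covariate C2 was at -0.31 (adjusted p = 0.617) and C3ar1 at 0.35 (adjusted p = 0.185) from 8 to 20 weeks, and C3ar1 was at -0.13 and C5ar1 at -0.14 from 8 to 34 weeks (adjusted p = 0.605 and 0.651). Serping1 in HFD mice differed by 0.05, -0.02 and 0.03 over these 3 steps, with 95% intervals that lie between -1.09 and 1.12.

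**Figure D4:**
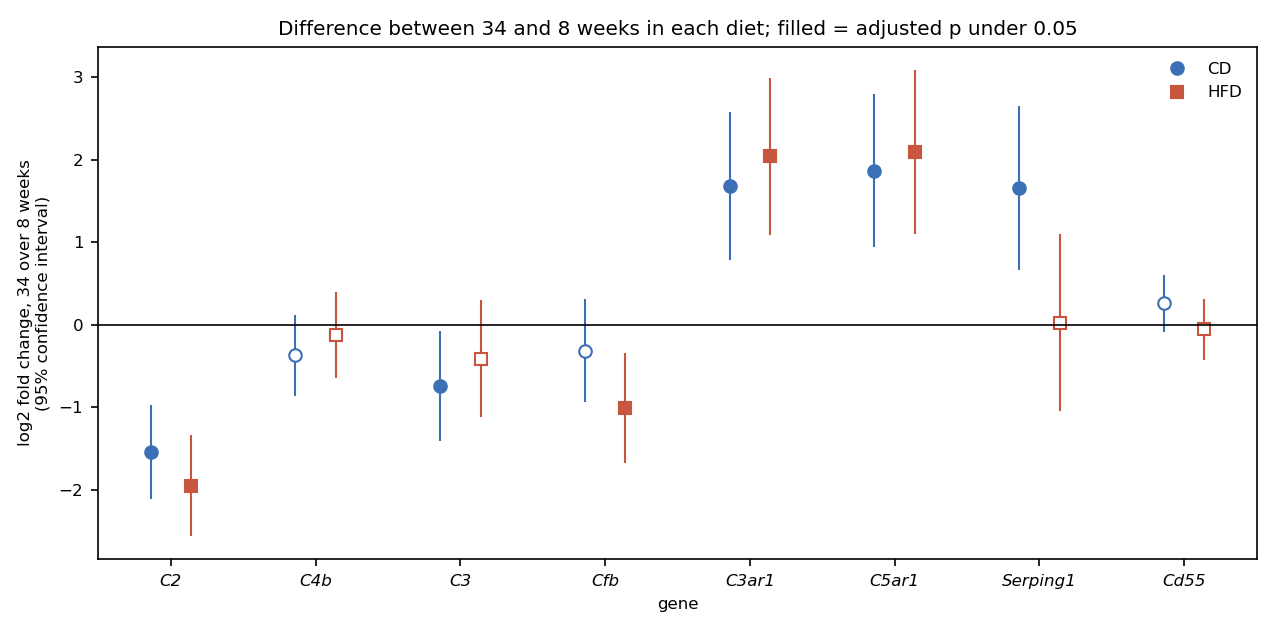
Log2 fold change of 34 over 8 weeks for each gene in CD (blue circles) and HFD (red squares) mice. Bars are 95% confidence intervals from limma's standard errors. Filled symbols are called at an adjusted p under 0.05. C2 lies low and both receptors high in either diet, and Serping1 is called in CD mice (1.66) and not in HFD mice (0.03).

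Whether the diet difference itself changed with time was tested as an interaction. No gene of the 8 passed in any of these tests, beside 4.49% of all genes for 20 against 8 weeks, 28.8% for 34 against 8 weeks and 10.5% for 34 against 20 weeks. By limma 1 of 8 had an unadjusted p under 0.05 in each test, and edgeR called 1 of 8 in each. That gene was Cd55 for 20 against 8 weeks, with a difference of -0.80 (interval -1.32 to -0.28, adjusted p = 0.0591, in edgeR -0.96 with adjusted p = 0.0364). For Serping1 the diet difference was lower by 2.06 at 34 than at 20 weeks (a value of -2.06, interval -3.53 to -0.60, adjusted p = 0.0575, in edgeR -1.998 with adjusted p = 0.0469). At 34 against 8 weeks it was -1.63 (interval -3.09 to -0.17, adjusted p = 0.0829, in edgeR -1.84 with adjusted p = 0.0377). Leaving out single mice moved limma's adjusted p to either side: without 20 week CD mouse 1 it was 0.0277 for Cd55 and 0.0158 for Serping1 at 34 against 20 weeks, and without 34 week CD mouse 6 it was 0.0119 and 0.0209 for the Serping1 tests. It rose to 0.121 for Cd55 without 20 week CD mouse 3, to 0.105 for Serping1 at 34 against 20 weeks without the same mouse, and to 0.140 for Serping1 at 34 against 8 weeks without 8 week HFD mouse 3. For C2 the diet difference changed by -0.07 for 20 against 8, -0.41 for 34 against 8 and -0.34 for 34 against 20 weeks, none of which passed, with intervals from -1.24 at the lowest to 0.79 at the highest.

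Covariation within groups was described by the Pearson correlation of each mouse's deviation from its group mean in log2(CPM + 1) over the 38 mice, which share library depth and cell makeup within a mouse. The receptors were closest, with r = 0.94. Serping1 went with Cfb (0.76), C3 (0.72) and C4b (0.63), and C3 with Cfb (0.73), while C3 and C4b were at 0.28 with each other. C2 had lower values, with 0.41 to C4b, 0.14 to its neighbour Cfb, -0.29 to C3 and -0.48 and -0.46 to C3ar1 and C5ar1. Against the mean level of the marker lists, C3ar1 and C5ar1 had r = 0.96 and 0.95 with macrophage markers. They also had 0.75 and 0.75 with fibroblast and progenitor markers and 0.75 and 0.76 with B and T cell markers. With adipocyte markers they had -0.65 and -0.66. C2 had 0.65 with adipocyte and -0.62 with fibroblast and progenitor markers. Cd55 was at -0.00321 with macrophage markers.

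**Figure D5:**
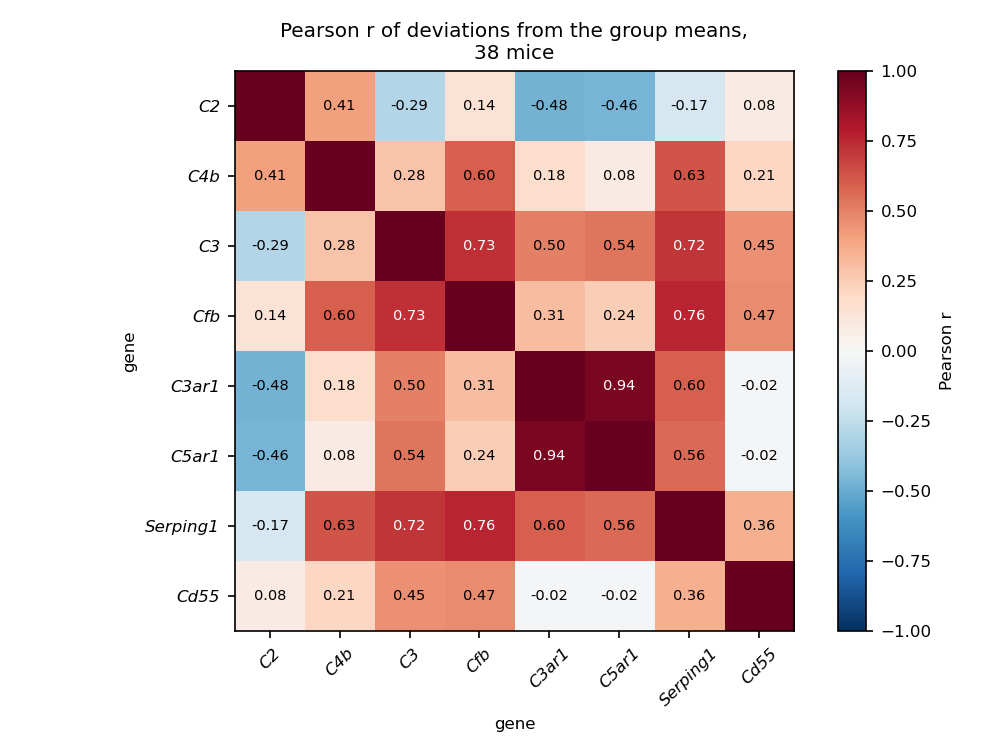
Pearson r between the 8 genes, from deviations of log2(CPM + 1) from the group means over 38 mice, on a scale from -1 (blue) to 1 (red). The highest value, 0.94, joins C3ar1 and C5ar1, and C2 has negative values with C3, both receptors and Serping1.

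By the same measure the genes outside the complement lists most like C3ar1 were Cd180, Hpgds and Cd53 (r = 0.97, 0.97 and 0.97), and those most like C5ar1 were Cmtm3, Cd83 and Coro1a (0.96, 0.95 and 0.94). Cd53 and Coro1a are general leukocyte genes and Cd83 is a surface protein of activated antigen-presenting cells. C2 was most like Phyh, a peroxisomal enzyme of fatty acid oxidation, Phkg1, a subunit of phosphorylase kinase, and Trf, which encodes transferrin (0.86, 0.86 and 0.82). Cfb was most like Sgms2, Hp and Serpina3n (0.81, 0.80 and 0.79), of which Hp (haptoglobin) and Serpina3n are acute phase genes. C3 and Serping1 shared Tmem176a as their nearest gene (0.79 and 0.92), followed by Ubd and Lox for C3 (0.76 and 0.76) and by Pam and Acsl5 for Serping1 (0.86 and 0.86). C4b was nearest to Synpo2, Svep1 and Pdlim7 (0.81, 0.80 and 0.79) and Cd55 to Pde7b, Sh2d4a and Prnp (0.74, 0.72 and 0.71).

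Of 44 other complement genes on a list of the cascade 23 passed the filter, and 10, 12 and 12 were higher and 7, 5 and 4 lower in HFD mice at 8, 20 and 34 weeks. Over all genes 29.8%, 38.3% and 27.5% were higher and 15.1%, 18.7% and 15.7% lower. The median log2 fold change of the 23 was 0.65, 0.88 and 0.54, and that of all genes 0.11, 0.14 and 0.07. Among the initiators C1qa, C1qb and C1qc, the chains of the recognition protein C1q that macrophages make, all rose at each time, and C1qb was at 184 ± 88.6, 634 ± 170 and 1161 ± 466 CPM in HFD against 64.3 ± 47.9, 132 ± 98.7 and 421 ± 380 in CD mice (SD, n = 6, and n = 8 at 34 weeks on CD). Cfd, the protease that activates factor B, fell at each time, from 17207 ± 1822 to 3483 ± 2705 CPM at 8 weeks (log2 fold change -2.76, adjusted p = 1.37e-05). Of the terminal components C6 fell at each time (-1.64, -2.46 and -1.06), whereas C7 fell at 8 weeks (-1.29, adjusted p = 0.00273) and rose at 20 and 34 weeks (1.56 and 1.66, adjusted p = 0.000210 and 0.000175). Thus Cfd and C6 fell as C2 did, while the C1q chains rose with the receptors.

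The other regulators did not move as 1 group. Clu, a fluid-phase inhibitor of the terminal complex, fell at 20 and 34 weeks (-1.30 and -1.93, adjusted p = 0.000236 and 5.04e-06) and was at -0.18 at 8 weeks (adjusted p = 0.618). Cd59a, which blocks the membrane attack complex, rose at 8 and 20 weeks (1.21 and 0.88, adjusted p = 1.04e-05 and 0.000168) and was at 0.07 at 34 weeks (adjusted p = 0.753). Among the other receptors Itgam, Itgax and Itgb2, the chains of complement receptors 3 and 4, all rose at each time, with Itgax at 2.86, 5.15 and 4.08.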

How the data were processed

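RNA-seq of floating adipocytes was deposited as 114 samples, 3 technical replicates of each of 38 mice, and the table holds 1 column per mouse, which names its group and not a single deposited sample. Per the submitters' processing notes and the methods, the authors aligned stranded polyA reads to mm10 (GRCm38) with STAR (2.5, also given as 2.5.2b) and counted reads on GENCODE genes with featureCounts of Subread 1.5.1. The deposited values are CPM made by the authors with edgeR. Each column sums to 1000000, so no TMM factor shows in them, and all values gave whole reads within 0.1 reads.

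Genes with a mean log2(CPM + 1) above 2 were kept (10343 of 29132, of which 7966 had no read). The 6 groups were fitted together in R 4.3.3 with limma 3.58.1 and an intensity trend, leaving 32 residual degrees of freedom, with Benjamini-Hochberg adjustment over all genes tested and a threshold of 0.05. Fold changes are on the log2(CPM + 1) scale, which understates those of low genes. Diet was compared at each time, times within each diet, and the diet difference between times. The script was tested on simulated data.

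Alternatives were TMM factors, size factors (DESeq2 1.42.0), a pseudocount of 0.1, no filter or a mean above 3, no trend, array weights, mouse number as a block, macrophage or fibroblast marker level as a covariate, separate fits per time, edgeR 4.0.16 on the recovered reads, and leaving out each mouse. Named were the 8 genes, up to 3 of the most abundant other complement genes of each role, and the 3 genes most correlated with each of the 8, predicted genes passed over. A gene that this rule names is not reported here. C4a and Gm20547 are named for the sequence or exons they share. Members and lists were chosen with earlier results of these data known. The p-values measure the spread between mice. Upstream bases came from RefSeq.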

Additional observations from a re-analysis of the deposited data

Results flagged for a closer look

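In 9 of 48 gene and group combinations 1 mouse lay far above the rest of its group by Dixon's criterion at 95%, applied to CPM. Where values are normally distributed it marks about 1 in 20 groups by chance, and the genes are not independent of each other. All 9 lay on the high side, where CPM can be skewed. The criterion was not applied to log2(CPM + 1), so the 9 are not read against that rate. CD mouse 6 of 8 weeks had C3 at 5322 CPM, where the other 5 ranged from 1049 to 2285, Cfb at 98.6 CPM against 26.5 to 40.5, and Serping1 at 318 CPM against 53.1 to 81.9. CD mouse 1 of 20 weeks had C5ar1 at 138 CPM against 25.8 to 65.2, and Serping1 at 270.0 CPM against 40.8 to 91.6. CD mouse 5 of 34 weeks had C3ar1 at 358 CPM, where the other 7 ranged from 24.6 to 145, and C5ar1 at 329.7 CPM against 24.3 to 112. HFD mouse 4 of 20 weeks had C2 at 90.7 CPM against 24.9 to 47.2, and C4b at 3796 CPM against 1533 to 2374. The 3 CD mice had the highest summed macrophage markers of their groups, at 1774, 3649 and 13010.2 CPM, and HFD mouse 4 had the lowest of its group, at 5175 CPM. The part of these cells in the levels was not tested.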

How the results depend on the processing

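Over the 12 settings other than leave-outs, 519 values of the 8 genes were compared, of which 449 kept direction and side of the threshold, 30 lost and 20 gained a call and 20 changed sign. Genes called at 8 weeks numbered 5, but 3 without a filter on low values or with the macrophage covariate and 1 with the fibroblast covariate. At 20 weeks they numbered 5, but 8 with array weights and 1 with either covariate, and at 34 weeks 3, but 1 with either covariate. In CD mice the count from 8 to 20 weeks went from 1 to 3 with array weights and 2 with either covariate, and from 8 to 34 weeks from 5 to 3 with either. In HFD mice that from 8 to 20 weeks went from 3 to 1 with the macrophage and 0 with the fibroblast covariate, and from 20 to 34 weeks from 1 to 3 with the macrophage covariate. For the change of the diet difference, 0 calls became 1 for 20 against 8 weeks with TMM factors, size factors or edgeR and 2 with array weights. For 34 against 8 weeks 0 became 2 with array weights and 1 with the macrophage covariate or edgeR, and for 34 against 20 weeks 1 with array weights, the fibroblast covariate or edgeR.

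Values that changed sign with the macrophage covariate were Cfb (-0.11) and C5ar1 (-0.21) at 8 weeks, C3ar1 (-0.045) and C5ar1 (-0.11) at 20 weeks, Serping1 (-0.91) at 34 weeks, and, from 8 to 34 weeks, C3ar1 (-0.51) and C5ar1 (-0.38) in CD and C3ar1 (-0.13) and C5ar1 (-0.14) in HFD mice. With the fibroblast covariate they were C3ar1 (-0.085) and C5ar1 (-0.33) at 8 weeks, C3ar1 (-0.33) and C5ar1 (-0.45) at 20 weeks and Serping1 (-0.66) at 34 weeks. With edgeR they were Cfb at 8 weeks (-0.017) and Serping1 at 34 weeks (-0.29). With array weights they were Serping1 (-0.40) and Cd55 (-0.041) at 34 weeks, and Cd55 was also at -0.013 there with TMM and -0.014 with size factors. The cause was not tested.

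Leaving out each mouse gave 3 to 6 calls at 8 weeks, 4 to 6 at 20 weeks and 3 at 34 weeks. In CD mice it gave 1 to 2, 4 and 4 to 5 calls for 8 to 20, 20 to 34 and 8 to 34 weeks, in HFD mice 2 to 3, 1 and 4, and for the diet difference over time 0 to 1. At 34 weeks Cd55 ranged from -0.021 to 0.16 and Serping1 from -0.19 to 0.31. For the change from 20 to 34 weeks in CD mice the calls ran from 3 with the fibroblast to 6 with the macrophage covariate, against 4. Leaving out 8 week CD mouse 4 or 5 or HFD mouse 2 brought Cd55 at 8 weeks to a call (adjusted p = 0.0343 to 0.0469), and over all leave-outs that p reached 0.165.

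With mouse number as a replicate block the calls were 5, 5 and 3 between diets, and 5 in place of 4 from 20 to 34 weeks in CD mice. Of 90 pairs of mice with the same number in different groups, 30 had a correlation of deviations over 0.1 and the median was -0.068. Of 510 pairs with different numbers in different groups, 195 were over 0.1 and the median was 0.0026. Mice with the same number were thus no more alike than others by this measure. Some differences that were not called moved by over 1.5 times: Cfb at 8 weeks to 0.49 without CD mouse 6, C4b at 20 weeks to -0.14 without CD mouse 1, and C4b and Cfb at 34 weeks to -0.24 and -0.28 without HFD mouse 4. Depth, 0.0646 to 0.108 CPM per read, was far under the level of each of the 8 genes.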
